A study of Saccharomyces cerevisiae with 2 samples.

Results

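The genes for the nuclear RNA polymerases of the budding yeast Saccharomyces cerevisiae were compared between 2 messenger RNA libraries. The wild-type strain was CY2706, with TRA1, and the other strain was CY3003, with the allele tra1-L3733A. Tra1 is a very large protein shared by the histone acetyltransferase complexes SAGA and NuA4. Both strains were grown at 30 °C in YP medium with 2% glucose to an A600 of 2.0, and RNA was taken from whole cells. The labels do not say whether either allele sits on a chromosome or a plasmid, or which other alleles the strains carry. The genes were chosen by name, as every listed open reading frame (ORF) named RPA, RPB, RPC or RPO with a number, plus RET1. This gave 32 of 6603 listed ORFs. Of these, 31 encode subunits of the nuclear enzymes and 1, RPO41, encodes the RNA polymerase of mitochondria, which is kept apart below. The 31 comprised 7 genes for subunits found only in RNA polymerase I, 7 only in RNA polymerase II, 10 only in RNA polymerase III, 2 shared by polymerases I and III, and 5 shared by the 3 enzymes. There was 1 library per strain, so no value below has a replicate check, no p-value is given, and each difference is one between these libraries and not between the genotypes.

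RNA polymerase I transcribes the large ribosomal RNA precursor, RNA polymerase II transcribes messenger RNAs and many small noncoding RNAs, and RNA polymerase III makes transfer RNAs and other short RNAs. The enzymes are built on one plan. The largest and the second-largest subunit form the active site. A pair of alpha-like subunits and a set of common subunits hold the assembly together, and a stalk projects from the core. Each enzyme has a small zinc ribbon subunit, which in polymerases I and III acts in RNA cleavage. Polymerases I and III also carry built-in subunits that resemble the separate polymerase II initiation factors TFIIF and TFIIE. In yeast the genes for polymerases I and III have long been linked to a promoter element named PAC, after polymerases A and C, the older names of these enzymes. PAC often occurs with a second element, RRPE, in genes for ribosome synthesis.

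The promoter windows below are those of the 4 genes called lower in the tra1-L3733A library (RPA34, RPB5, RPO26 and RPC17) and of 4 genes that show how PAC and RRPE are placed (RPA135, RPC40, RPC31 and RPC25). Each runs from 250 bases before the start codon to 50 bases into the coding sequence, 5′ to 3′ on the gene's strand, in RefSeq's R64 genome. Capitals mark matches to PAC (GCGATGAG) or RRPE (AAAAATTTT) on either strand.
RPA34 (chrX:140187-140486, forward strand): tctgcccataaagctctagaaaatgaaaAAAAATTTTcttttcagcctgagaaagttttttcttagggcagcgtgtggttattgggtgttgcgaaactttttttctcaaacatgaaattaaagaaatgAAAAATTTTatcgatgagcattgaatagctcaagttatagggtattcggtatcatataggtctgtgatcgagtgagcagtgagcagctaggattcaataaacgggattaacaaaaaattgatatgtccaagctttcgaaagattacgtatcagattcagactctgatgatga
RPB5 (chrII:548960-549259, reverse strand): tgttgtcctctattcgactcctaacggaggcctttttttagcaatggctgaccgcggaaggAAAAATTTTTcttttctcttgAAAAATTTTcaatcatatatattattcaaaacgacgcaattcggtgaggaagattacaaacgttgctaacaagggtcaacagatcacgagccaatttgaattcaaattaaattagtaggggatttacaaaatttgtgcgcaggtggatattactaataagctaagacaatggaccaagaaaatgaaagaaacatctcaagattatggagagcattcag
RPO26 (chrXVI:911007-911306, forward strand): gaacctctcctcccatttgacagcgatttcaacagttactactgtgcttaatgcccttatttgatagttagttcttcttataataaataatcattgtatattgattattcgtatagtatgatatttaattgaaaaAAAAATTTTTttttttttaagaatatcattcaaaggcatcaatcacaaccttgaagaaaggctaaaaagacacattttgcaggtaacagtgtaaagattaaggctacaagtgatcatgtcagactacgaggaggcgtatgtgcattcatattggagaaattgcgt
RPC17 (chrX:414721-415020, reverse strand): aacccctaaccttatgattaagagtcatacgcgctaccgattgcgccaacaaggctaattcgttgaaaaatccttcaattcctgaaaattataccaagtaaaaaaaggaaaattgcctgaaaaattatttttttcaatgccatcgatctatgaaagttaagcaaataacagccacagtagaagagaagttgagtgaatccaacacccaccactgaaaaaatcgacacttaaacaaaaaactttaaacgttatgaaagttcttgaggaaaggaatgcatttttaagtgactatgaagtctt
RPA135 (chrXVI:581147-581446, reverse strand): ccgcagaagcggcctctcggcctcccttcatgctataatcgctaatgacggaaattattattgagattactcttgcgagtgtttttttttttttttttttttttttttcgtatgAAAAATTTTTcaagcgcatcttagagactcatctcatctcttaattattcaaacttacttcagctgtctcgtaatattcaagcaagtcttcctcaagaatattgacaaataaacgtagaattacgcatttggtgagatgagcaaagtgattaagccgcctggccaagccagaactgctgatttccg
RPC40 (chrXVI:746786-747085, reverse strand): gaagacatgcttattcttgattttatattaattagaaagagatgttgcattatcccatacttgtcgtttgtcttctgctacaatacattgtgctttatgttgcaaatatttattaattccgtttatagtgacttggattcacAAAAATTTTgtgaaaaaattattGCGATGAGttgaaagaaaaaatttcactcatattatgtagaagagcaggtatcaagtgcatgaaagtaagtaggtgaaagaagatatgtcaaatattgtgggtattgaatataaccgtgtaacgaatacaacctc
RPC31 (chrXIV:348472-348771, reverse strand): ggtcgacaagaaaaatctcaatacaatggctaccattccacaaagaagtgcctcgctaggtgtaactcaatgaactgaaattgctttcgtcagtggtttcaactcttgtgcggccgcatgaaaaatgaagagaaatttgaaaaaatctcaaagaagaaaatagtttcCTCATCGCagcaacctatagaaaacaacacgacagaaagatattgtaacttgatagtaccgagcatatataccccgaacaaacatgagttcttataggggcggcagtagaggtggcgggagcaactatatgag
RPC25 (chrXI:176432-176731, reverse strand): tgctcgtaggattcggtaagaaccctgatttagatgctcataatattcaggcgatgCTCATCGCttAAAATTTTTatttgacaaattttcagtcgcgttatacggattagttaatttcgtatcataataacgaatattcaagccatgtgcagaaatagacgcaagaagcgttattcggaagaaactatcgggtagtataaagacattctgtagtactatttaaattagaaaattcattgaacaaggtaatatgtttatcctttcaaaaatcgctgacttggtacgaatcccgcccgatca

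PAC letters were found in 6 of the 31 nuclear polymerase windows (19.4%), against 236 of 6007 windows of the same length before all R64 coding genes (3.93%). The 6 were RPA49, RPC82, RPC31, RPC25 and both genes shared by polymerases I and III, RPC40 and RPC19, and their matches began between -194 and -83 bases from the start codon. Of the 7 polymerase II genes and the 5 common genes, 0 had it. RRPE letters were found in 16 of 31 windows (51.6%), against 6.99% of all windows, and in 6 of the 7 polymerase I genes, RPA12 being the exception. The stretches before RPB5, RPO26 and RPA135 match RRPE on both strands, with the paired matches sharing all but 1 base of each. The element of Abf1, a general regulatory factor of yeast promoters, was matched in 13 of 31 windows (41.9%), against 12% of all. It was matched before 4 of the 5 common genes, RPB5 being the exception. The core of the Reb1 element (CGGGTAA) was matched in 4 of 31 (12.9%), against 7.08% of all. Matches to different elements overlapped in 0 cases. A match says only that these letters are in the window.

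**Figure D1:**
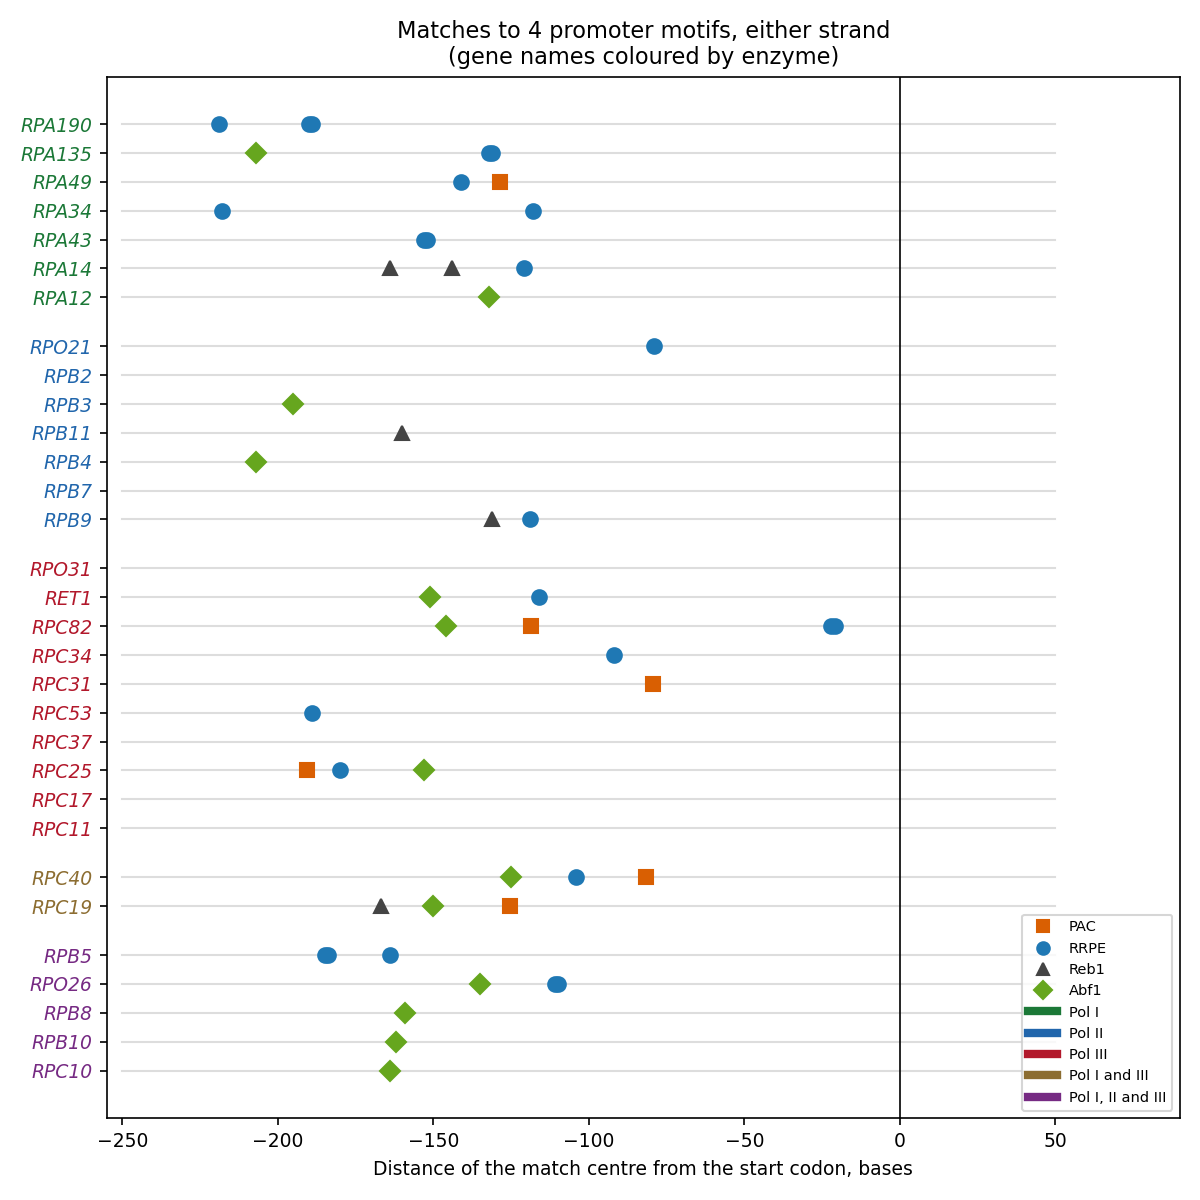
Matches to PAC, RRPE, Reb1 and Abf1 on either strand in the window of each nuclear polymerase gene, plotted by the distance of the match centre from the start codon in bases. PAC (orange squares) appears before 6 genes, all of polymerase I, of polymerase III or shared by both, and RPC17, RPC11, RPC37, RPO31, RPB2 and RPB7 have no match to any of the 4 elements.

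The TRA1 library held 11564964 counts and the tra1-L3733A library 9970836, summed over both read directions. Library sizes were scaled by edgeR's TMM method (a trimmed mean of log ratios), and abundance is given per kilobase of ORF span and per 1e6 scaled counts (RPKM). A ratio is tra1-L3733A over TRA1, with a 95% exact counting interval that covers counting error only and not the spread between cultures. An ORF was called higher or lower when it had at least 20 reads in all, differed 1.5-fold or more and had an interval that did not hold 1. Where a pair of values is given for a gene, the TRA1 library comes first. TRA1 itself had 12035 and 5102 reads, a ratio of 0.526 (0.509 to 0.544), and a point substitution need not change its messenger RNA, so this does not check the labels. Every value is relative to the library, so fewer cells of one kind and less RNA per cell cannot be told apart. Per gene, the nuclear polymerase genes had 248 to 6831 reads for TRA1 and 146 to 6014 for tra1-L3733A, and all 31 had enough reads to be tested.

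The nuclear polymerase genes were expressed above the typical ORF, and the subunits of polymerase III were the least abundant class. In the TRA1 library their levels ran from 32.1 RPKM for RPC34 to 290.0 RPKM for RPC10, with a median of 89.1 RPKM, against a median of 35.2 RPKM over all 6248 tested ORFs. Levels of 29 of the 31 lay above that median in the TRA1 library, and 28 of 31 lay above the median of 35.1 RPKM in the tra1-L3733A library. By class, the median level in the TRA1 library was 75.2 RPKM for polymerase I, 109.8 RPKM for polymerase II, 44.1 RPKM for polymerase III and 231.8 RPKM for the common subunits. In the tra1-L3733A library these medians were 77.7, 82.7, 45.3 and 138.3 RPKM in the same order. The genes shared by polymerases I and III were at 146.8 RPKM (RPC40) and 95.5 RPKM (RPC19) in the TRA1 library. Within a class the highest and lowest levels in the TRA1 library differed by a factor of 2.06 for polymerase I, 3.11 for polymerase II, 2.25 for polymerase III and 2.98 for the common subunits. In the tra1-L3733A library that factor was 4.26 for the common subunits, from RPB5 at 65.6 RPKM to RPC10 at 279.6 RPKM.

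**Figure D2:**
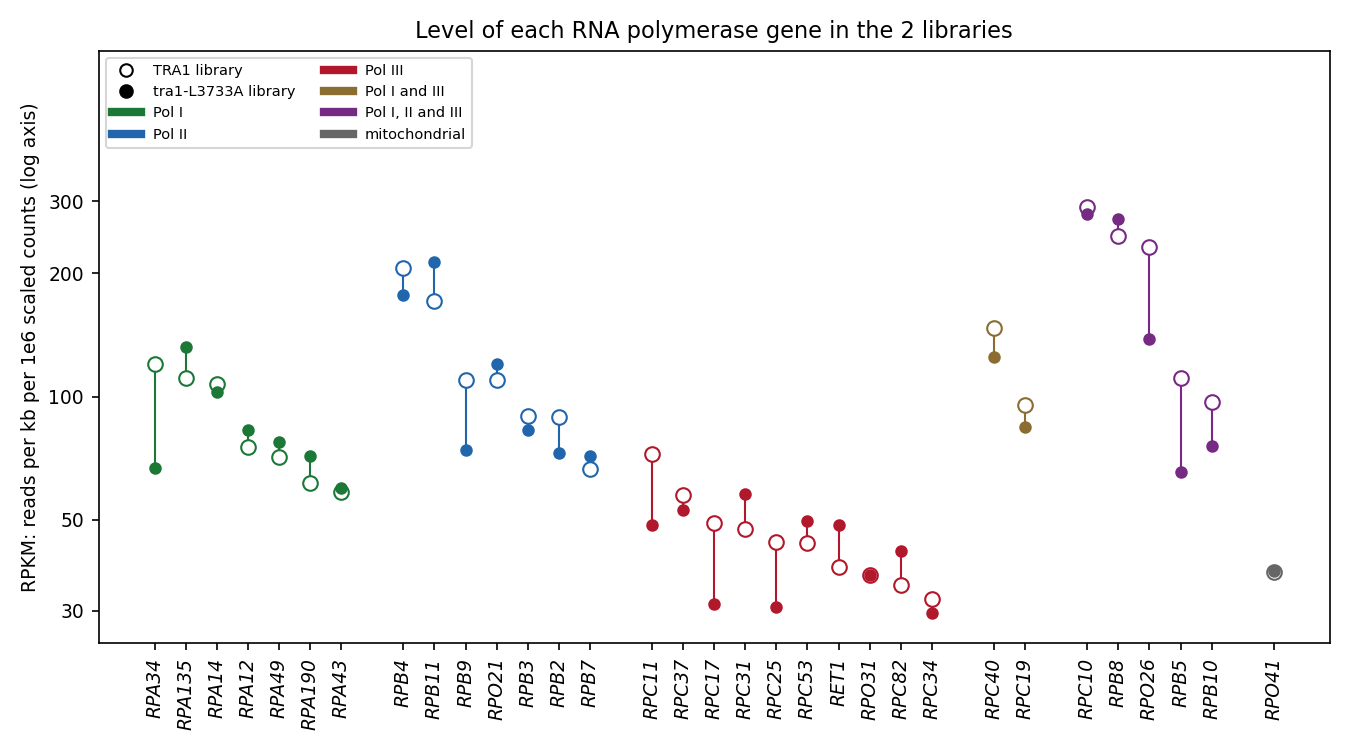
Level of each polymerase gene in reads per kilobase per 1e6 scaled counts (log axis) in the TRA1 library (open circles) and the tra1-L3733A library (filled circles), grouped by enzyme and ordered by the TRA1 level. All but 1 of the polymerase III genes lie below 60 RPKM in the TRA1 library, RPC11 at 72.3 RPKM being the exception, and RPA34, RPO26, RPB5 and RPC17 show the filled circle well below the open one.

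Most nuclear polymerase genes were not called as different between the libraries, and those that were called were lower. By the size rule 4 of 31 (12.9%) were lower in the tra1-L3733A library, namely RPA34, RPB5, RPO26 and RPC17, and 0 were higher. Among all 6248 tested ORFs, 5.46% were called lower and 2.8% higher. Under a looser rule, at least 25% higher or 20% lower, 8 of 31 (25.8%) were lower, against 14.4% of all, and 1 of 31, RET1, was higher, against 10.7% of all. At a ratio of at least 2, 0 of 31 were lower and 0 higher, against 0.912% and 0.32% of all. With scaling by total counts 7 of 31 passed as lower at the 1.5-fold rule, with RPB9, RPC11 and RPC25 added, while all ORFs split into 91 higher and 515 lower in place of 175 and 341. The median log2 ratio of the 31 was -0.06, against -0.00 for all tested ORFs. Intervals lay wholly above 1 for 9 genes, wholly below 1 for 11 and held 1 for 11. Counting error alone sets these intervals, and the same counts over all tested ORFs are not given. The split thus cannot show whether these genes differ from other ORFs. It also rests on the TMM scaling, since total counts move every log2 ratio by -0.10. Summed reads of the 31 genes were 41382 and 33347, and their scaled ratio was 1.00034 (0.986 to 1.015). Their share of unscaled counts was 0.358% (0.354 to 0.361%, exact binomial) in the TRA1 library and 0.334% (0.331 to 0.338%) in the tra1-L3733A library, so the equality of the sums rests on the TMM scaling.

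**Figure D3:**
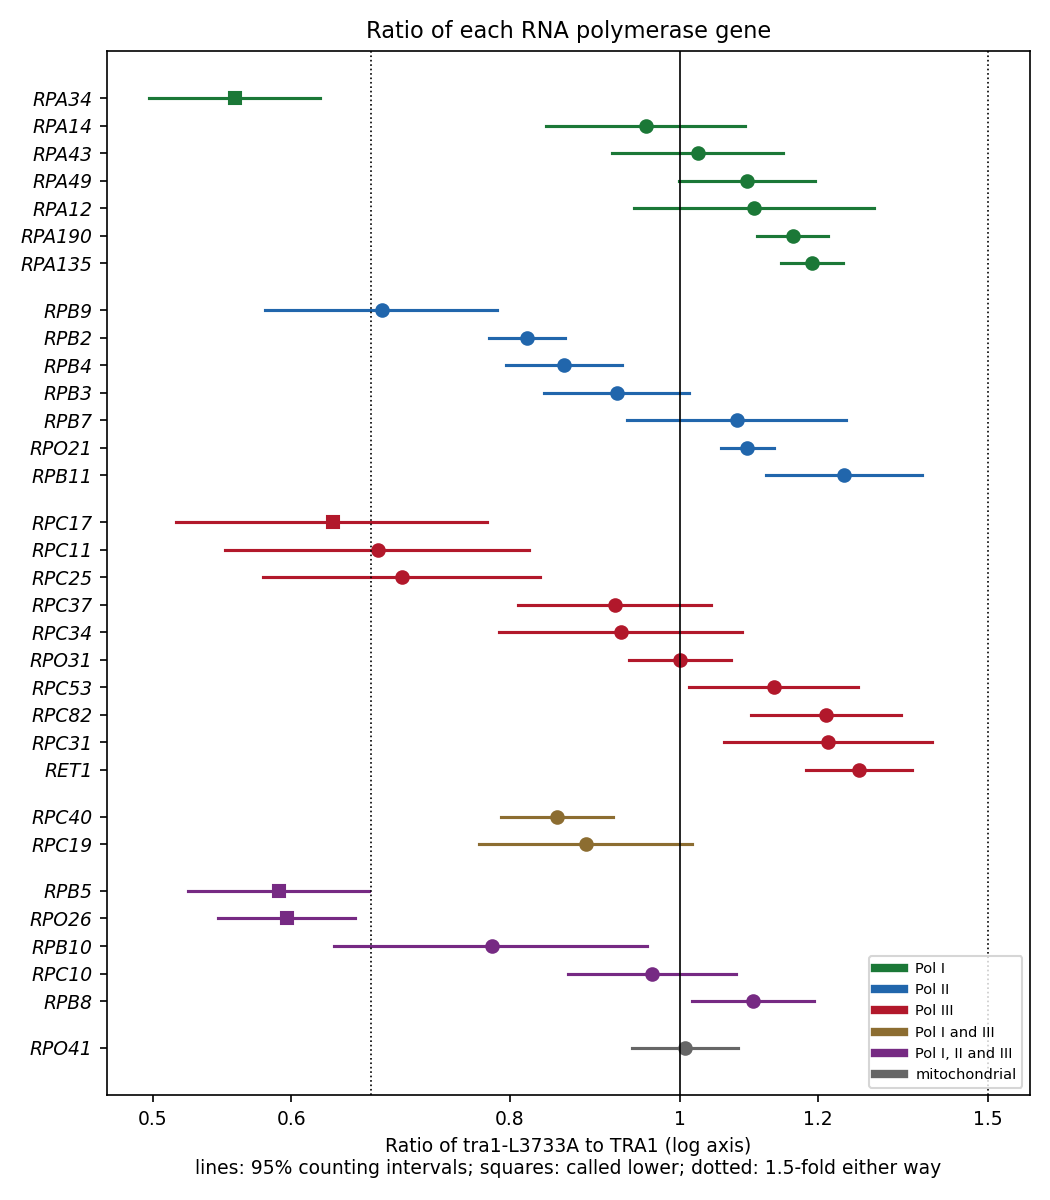
Ratio of tra1-L3733A to TRA1 (log axis) for each polymerase gene, with its 95% counting interval as a line, grouped by enzyme. Squares mark the 4 genes called lower, RPA34, RPC17, RPB5 and RPO26, the dotted lines mark a ratio of 1.5 either way, and no gene reaches the right-hand line.

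Of the 7 polymerase I genes, 6 had ratios near or above 1 and RPA34 stood far below them. RPA34 (YJL148W), whose product pairs with Rpa49 as the TFIIF-like module, had 1012 and 454 reads, at levels of 120.5 and 67.1 RPKM. Its ratio was 0.557 (0.497 to 0.623), the lowest of the 31 genes. The forward and reverse reads gave 0.563 (0.479 to 0.661) and 0.551 (0.469 to 0.645), so both directions show the same difference. RPA49, the partner of RPA34 in that module, had 1061 and 934 reads, with a ratio of 1.09 (0.9997 to 1.19), and the intervals of the partners did not overlap. In the TRA1 library RPA34 was the most abundant of the 7 polymerase I genes, and in the tra1-L3733A library only RPA43 was below it. RPA190 and RPA135, for the largest and the second-largest subunit, had 3684 and 3445 reads and 4796 and 4600 reads. Their ratios were 1.16 (1.11 to 1.22) and 1.19 (1.14 to 1.24), both with intervals above 1 and below 1.5. The stalk genes RPA43, whose product binds the initiation factor Rrn3, and RPA14, its stalk partner, which overlaps YDR157W, were at 1.02 (0.915 to 1.15) and 0.956 (0.838 to 1.09). RPA12, the zinc ribbon gene, was at 1.10 (0.941 to 1.29) on 340 and 302 reads. RPA43 and RPA190 lie head to head on chromosome XV, with 804 bases between their start codons in R64. The class median log2 ratio was 0.13.

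The 7 polymerase II genes spread to both sides of 1, and 0 were called. RPO21 (YDL140C) encodes the largest subunit, which bears the C-terminal domain of heptad repeats that is phosphorylated during transcription. It had 6831 and 6014 reads, the most of the 31 genes, or 109.8 and 119.95 RPKM, and a ratio of 1.09 (1.06 to 1.13). RPB2, for the second-largest subunit, had 3916 and 2580 reads, with a ratio of 0.818 (0.778 to 0.860). These genes for the subunits that form one active site thus lay on opposite sides of 1, with intervals that did not overlap. How far RPO21 lay above 1 depended on the scaling, at 1.02 with total counts and 1.03 with lane reads. The alpha-like genes RPB3 and RPB11, whose products pair early in assembly, were at 0.920 (0.837 to 1.01) and 1.24 (1.12 to 1.38). The RPB11 value depended on the setting. It was 1.42 (1.22 to 1.66) with forward reads, 1.11 (0.968 to 1.28) with reverse reads and 1.08 with the GC trend removed. RPB3 overlaps the listed ORFs YIL021C-A and YIL020C-A, so its reads may not be its own alone. The stalk genes RPB4 and RPB7 were at 0.859 (0.796 to 0.927) and 1.08 (0.933 to 1.245), and RPB4 was the most abundant gene of this class in the TRA1 library, at 206.7 RPKM against 66.4 for RPB7. RPB9, for the zinc ribbon subunit that acts in start site choice and fidelity, had 485 and 264 reads. Its ratio of 0.676 (0.579 to 0.787) was the lowest of the class and just missed the rule. The class median log2 ratio was -0.12.

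The 10 polymerase III genes fell at both ends of the range. RPC17 (YJL011C), which encodes a stalk subunit, had 286 and 146 reads, or 49.2 and 31.2 RPKM, and a ratio of 0.634 (0.516 to 0.776). It was the 1 gene of the class called lower. Its forward and reverse reads gave 0.625 (0.458 to 0.847) and 0.641 (0.483 to 0.844). RPC25, its partner in the stalk, had 338 and 189 reads, with a ratio of 0.694 (0.578 to 0.832), and RPC11, the zinc ribbon gene whose product acts in RNA cleavage and termination, had 288 and 156 reads, with a ratio of 0.672 (0.550 to 0.820). Both missed the 1.5-fold rule narrowly, with intervals wholly below 1. At the other end, RET1 (YOR207C), for the second-largest subunit, had 1585 and 1616 reads, or 38.4 and 48.6 RPKM. Its ratio of 1.27 (1.18 to 1.36) was the highest of the 31 genes. RPC82 and RPC31, of the trimer that acts in initiation, were at 1.21 (1.10 to 1.34) and 1.22 (1.06 to 1.39), while RPC34, the third gene of the trimer, whose product contacts Brf1, was at 0.926 (0.789 to 1.09). RPC34 overlaps YNR003W-A. The TFIIF-like genes RPC53, which overlaps BUD30, and RPC37 were at 1.13 (1.01 to 1.26) and 0.918 (0.809 to 1.04). RPO31, for the largest subunit, had 1927 and 1553 reads, 36.7 and 36.8 RPKM, and an interval of 0.935 to 1.07. The class median log2 ratio was -0.05.

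The median log2 ratio was -0.20 for the 2 genes shared by polymerases I and III and -0.36 for the 5 common genes. The order of these medians against that of polymerase II differed between the read directions. They are medians of few genes, and the forward and reverse intervals of each gene overlapped. With forward reads they were -0.34 and -0.13, against -0.22 for polymerase II, and with reverse reads -0.07 and -0.58, against -0.13. RPB5 (YBR154C), for the jaw subunit, had 862 and 410 reads, or 111.2 and 65.6 RPKM, and a ratio of 0.590 (0.524 to 0.665). RPO26 (YPR187W), for the assembly subunit also called Rpb6, had 1509 and 725 reads, or 231.8 and 138.3 RPKM, and a ratio of 0.596 (0.545 to 0.652). Both were called lower, and both were below 1 in each read direction, at 0.537 (0.453 to 0.635) forward and 0.654 (0.550 to 0.775) reverse for RPB5 and at 0.525 (0.459 to 0.5999) and 0.666 (0.589 to 0.753) for RPO26. RPO26 is the 1 gene of the 31 with an intron in R64. The other common genes were not called. RPB10 had 248 and 156 reads, with a ratio of 0.781 (0.635 to 0.958). RPC10, for the small zinc-binding subunit also called Rpb12, had 739 and 574 reads, with a ratio of 0.964 (0.863 to 1.08). RPB8 had 1304 and 1157 reads, with a ratio of 1.10 (1.02 to 1.19). The common subunits thus ranged from RPB5 to RPB8 with intervals that did not overlap. RPC40 and RPC19, the alpha-like genes of polymerases I and III, had 1771 and 1214 reads and 490 and 349 reads. They were at 0.851 (0.790 to 0.916) and 0.884 (0.769 to 1.02), and RPC19 overlaps YNL114C. RPB10 and RPB8 lie on chromosome XV, as do RET1, RPO31, RPB2, RPB11, RPA43 and RPA190, which makes 8 of the 31 genes (25.8%) against 9.06% of all listed ORFs.

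Summed by class, which weights the most abundant and longest genes, the reads gave ratios of 1.098 (1.070 to 1.127) for polymerase I, 0.978 (0.954 to 1.001) for polymerase II and 1.055 (1.019 to 1.091) for polymerase III. The genes shared by polymerases I and III gave 0.858 (0.804 to 0.916) and the common genes 0.805 (0.768 to 0.843). By share of unscaled counts, TRA1 library first, polymerase I was at 0.105% (0.103 to 0.107%) and 0.107% (0.105 to 0.109%). These exact binomial intervals overlapped, so the rise of polymerase I rests in part on the TMM scaling. Polymerase II was at 0.130% and 0.119%. Polymerase III was at 0.0630% and 0.0621%, so its rise rests on the TMM scaling. With no replicates, the difference between these classes was not tested. RPO41 (YFL036W), the mitochondrial enzyme, had 1810 and 1468 reads, or 37.3 and 37.6 RPKM, and a ratio of 1.01 (0.939 to 1.08).

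Counterpart subunits of the 3 enzymes did not share one direction. Among genes for the largest subunit the ratios were 1.16 for RPA190, 1.09 for RPO21 and 1.0004 for RPO31. Among those for the second-largest they were 1.19 for RPA135, 0.818 for RPB2 and 1.27 for RET1, so the polymerase II gene alone was below 1. Among zinc ribbon genes RPB9 at 0.676 and RPC11 at 0.672 were close to each other and RPA12 was at 1.10, with an interval that overlapped neither. Both stalk genes of polymerase III lay below those of polymerases I and II, and the intervals of RPC17 and RPC25 overlapped neither that of RPA14 nor that of RPA43. The interval of RPC25 did overlap that of RPB4.

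**Figure D4:**
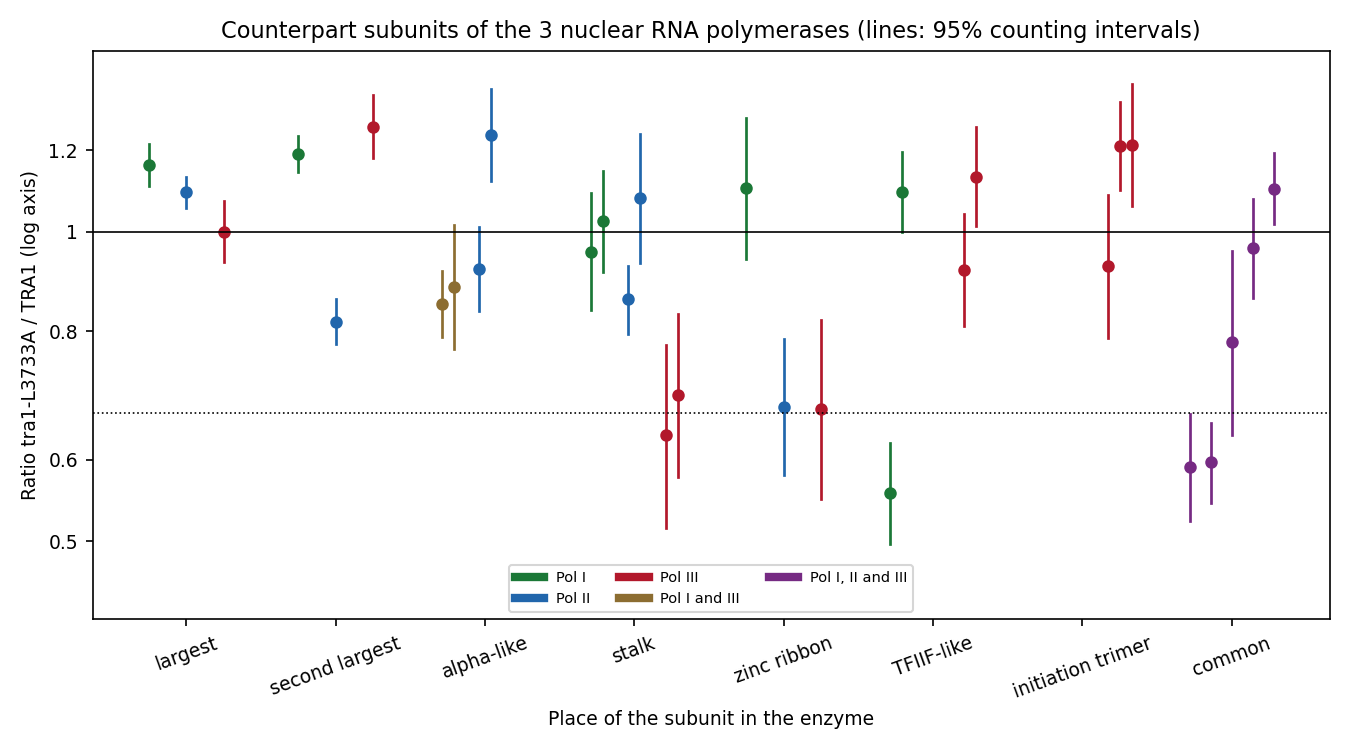
Ratio of tra1-L3733A to TRA1 (log axis) with 95% counting intervals, for subunits grouped by their place in the enzyme and coloured by enzyme. The zinc ribbon genes of polymerases II and III lie at 0.676 and 0.672 and that of polymerase I at 1.10, and the TFIIF-like genes hold both RPA34 at 0.557 and RPA49 at 1.09.

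The 4 genes called lower were short, with spans of 702 (RPA34), 648 (RPB5), 544 (RPO26) and 486 bases (RPC17), and the 6 genes longer than 3000 bases were at 0.818 to 1.27. Among the 21 genes under 1000 bases, 15 had ratios below 1, and the share of other ORFs of that span below 1 is not given. The median log2 ratio of those up to 500 bases was -0.12, against -0.03 for other ORFs. Over 500 and up to 1000 bases it was -0.12, against -0.04. Across the 31 genes the Spearman correlation of log2 ratio with span was 0.36, and across the 6216 other tested ORFs it was 0.03. These points share both libraries and are given as a description. Among other ORFs over 500 and up to 1000 bases 8.57% were called lower, against 3 of 11 nuclear polymerase genes of that span, and among those of up to 500 bases 7.82% were called lower, against 1 of 10. With the trend on span removed, RPA34 was at 0.573 (0.512 to 0.640), RPB5 at 0.607 (0.539 to 0.684), RPO26 at 0.612 (0.559 to 0.669) and RPC17 at 0.649 (0.528 to 0.794), and the same 4 genes were called. Of the 31 genes, 5 (16.1%) overlap another listed ORF, against 18.8% of all, and none of the 4 called does. Forward and reverse intervals were disjoint for 0 of the 32 genes and for 156 of 6248 tested ORFs.

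**Figure D5:**
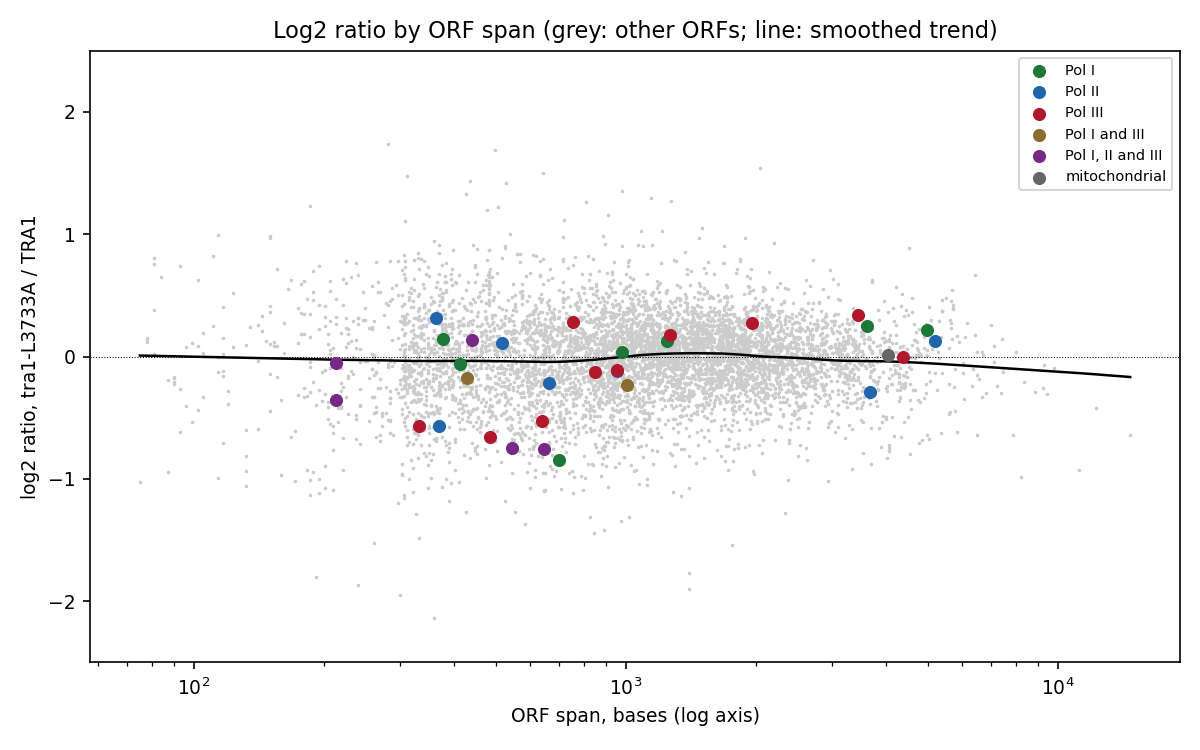
Log2 ratio of tra1-L3733A to TRA1 against ORF span in bases (log axis), with other tested ORFs in grey, polymerase genes coloured by class and a smoothed trend as a black line. The 4 genes called lower lie between 486 and 702 bases, below the trend, which stays close to 0 (3 other ORFs lie beyond the axis limit of 2.5).

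Genes with and without each promoter element had ratios that overlapped widely. The 6 genes with PAC letters had a median log2 ratio of -0.02 and ratios from 0.694 (RPC25) to 1.22 (RPC31), and 0 of 6 were called lower. The 25 without had a median of -0.06, and 4 were lower. Only exact letters were scored. RPA34, placed among those without, holds tcgatgag, which differs from PAC in its first letter, and such near matches were not counted for any gene. Of the 16 genes with RRPE letters 3 were lower (RPA34, RPB5 and RPO26), and of the 15 without, 1 (RPC17). The medians were -0.01 with RRPE and -0.12 without. Of the 13 genes with the Abf1 element 1 was lower, with a median of -0.12, and of the 18 without, 3 were, with a median of -0.03. Of the 4 genes with the Reb1 core 0 were lower, with a median of -0.12, and of the 27 without, 4 were, with a median of -0.05. RPA34 and RPA135 both hold RRPE, and they were the lowest and the highest of the polymerase I genes. No test was made of these counts, so they do not show whether the ratios depend on an element.

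Genes for the factors that work with the polymerases had medians near 0, and few were called. Of 8 polymerase I initiation factor genes, 0 were called, with a median log2 ratio of -0.07. RRN9, of the upstream activating factor, had 346 and 202 reads, with a ratio of 0.725 (0.606 to 0.865), and RRN11, of the core factor, was at 0.796 (0.671 to 0.943). Of 18 general factor genes of polymerase II, 1 was lower and 0 higher, with a median of 0.09. That gene was TFB1, of the factor TFIIH, with 427 and 208 reads, with a ratio of 0.605 (0.510 to 0.715), and TFB4, of the same factor, was at 0.737 (0.629 to 0.863). Other TFIIH genes went the other way. SSL1 was at 1.29 (1.15 to 1.45), TFB3 at 1.34 (1.13 to 1.60) and RAD3 at 1.24 (1.11 to 1.38). KIN28 was at 1.23 (1.05 to 1.43) and SSL2 at 1.11 (1.01 to 1.23). The intervals of TFB2, TFB5 and CCL1 held 1.

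Of 12 genes for elongation and for kinases and phosphatases of the C-terminal domain, 1 was lower and 0 higher, with a median of -0.06. That gene was CTK2, a subunit of the C-terminal domain kinase complex CTDK-I, with 226 and 113 reads, with a ratio of 0.621 (0.491 to 0.781), and SSU72, a phosphatase of that domain, was at 0.675 (0.541 to 0.839). The other genes of CTDK-I did not share the direction of CTK2, with CTK3 at 1.28 (1.10 to 1.49) and CTK1 at 0.979 (0.833 to 1.15). Of 8 polymerase III initiation factor genes, 0 were called, with a median of -0.05. BDP1, of TFIIIB, was at 0.757 (0.670 to 0.854) and TFC8, of TFIIIC, at 1.33 (1.14 to 1.55). MAF1, the repressor of polymerase III, was at 0.787 (0.680 to 0.908). SPT15, the TATA-binding protein that serves the 3 enzymes, was at 0.962 (0.882 to 1.05) and overlaps YER147C-A.

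Of 7 genes for polymerase assembly and nuclear import, 0 were called, with a median of 0.10. RTP1, which acts in polymerase assembly and import, was at 1.40 (1.198 to 1.63), and IWR1, an import factor of polymerase II that overlaps YDL114W-A, at 0.722 (0.601 to 0.864). MTF1, the partner of the mitochondrial enzyme, was at 1.07 (0.879 to 1.31). In all, 2 of these 56 genes were called lower and 0 higher, against 5.46% and 2.8% of all tested ORFs.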

How the data were processed

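Messenger RNA was measured in 2 libraries, 1 per strain, each sequenced on 1 lane as 35-nucleotide reads (13014880 reads for TRA1 and 11156078 for tra1-L3733A, per the labels' protocols). The submitters' processing notes name the aligner Novoalign. Its version, a genome build and an annotation release are not stated in the sources used here. Per the file headers, the deposited raw counts per ORF stand in the columns fr and rr, taken as read directions and summed. A deposited coverage signal equals reads divided by length in every row (tolerance 1e-06) and was not used further.

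Library sizes were scaled by TMM (edgeR 4.0.16 under R 4.3.3), at factors of 1.035 and 0.967. Ratios have Clopper-Pearson intervals (scipy 1.17.1), and log2 ratios added 0.5 reads to both counts. A quasi-likelihood test in edgeR needs replicates, which there are none of, so the size rule took its place. The procedure was tested on simulated data that held counting error alone, so that run could not test the spread between cultures. RPKM used the listed span, from start to end. Intervals cover counting error only, and reads are not independent molecules where no molecular identifiers are used.

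Identifiers of the 32 genes all matched R64, with 0 equal starts and 32 equal spans, so the files' coordinates differ from R64. Promoter windows and coding GC content come from R64 alone. Whether strand was kept is not stated. In the TRA1 library RPA190, on the forward strand, had 1848 forward and 1836 reverse reads. RPA135, on the reverse strand, had 2382 and 2414. Direction thus did not follow the strand of these genes, and reads of overlapping ORFs are not separated. All 32 genes were to be named, and from each of the lists of related genes the 2 members whose interval stays farthest from 1. Further genes of TFIIH and CTDK-I are named beside TFB1, TFB4 and CTK2. The genes, lists and size rule were chosen with earlier results of these data known. The alternatives were other scalings (total counts, lane reads, DESeq2 1.42.0 size factors), read filters, read directions, folds, overlap, length and GC content.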

Additional observations from a re-analysis of the deposited data

How the results depend on the processing

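The count of 4 lower nuclear polymerase genes, and which genes they were, did not change with DESeq2 size factors, no read filter, a 100-read filter, forward reads alone, overlapping ORFs left out, or the length or GC trend removed, and 0 were higher under these. It was 7 when libraries were scaled by lane reads or by total counts (RPB9, RPC11 and RPC25 added) and 8 with reverse reads alone (RPB10 added too). Under the looser rule (25% higher or 20% lower) 8 were lower and 1 higher, and at 2-fold 0 were lower. Over all ORFs, 175 higher and 341 lower became 91 and 515 with total counts, 98 and 500 with lane reads, 670 and 902 under the looser rule and 20 and 57 at 2-fold. Total counts moved all log2 ratios by -0.10.

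Class medians kept their sign under all 10 alternatives other than fold. The median of the common genes was -0.13 with forward reads and -0.58 with reverse reads, against -0.36, so the order of the class medians was not kept; the cause was not tested. Read direction did not end the calls of RPB5, RPO26, RPA34 or RPC17. Each direction alone did put the ratios of RPB7, RPB11, RPC53 and RPO26 outside their main intervals. Removal of the GC trend did so for RPA14, at 0.812, and RPB11, at 1.08. Removal of the length trend did so for RPO21, at 1.14. Scaling by total counts did so for RPA190 (1.08), RPA135 (1.11), RPO21 (1.02), RPB2 (0.764) and RPO31 (0.935). Scaling by lane reads did so for the same genes other than RPO31. By coding length in place of span, which leaves out its intron, RPO26 was at 269.5 RPKM in the TRA1 library. No paired analysis was possible because each strain has 1 library. The reads of RPC17 and RPC11 (146 to 288 per library) give intervals that span the 1.5-fold limit, so calls near it are limited by depth.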
